A study of Arabidopsis thaliana with 12 samples.

Results

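The young, lineage-specific microRNAs (miRNAs) of Arabidopsis thaliana shoots described here are 53 of the 390 miRNA names in the count table, and 53 of its 216 known names. They were chosen by name alone: the name had to be miR163, or miR401 or any higher number, and miR403, miR408, miR773, miR777, miR778, miR781, miR822, miR824, miR827, miR828, miR839, miR842, miR846, miR847, miR852, miR857, miR858, miR2111 and miR5654 were left out. No name of the families miR163, miR472, miR774, miR780, miR826, miR838, miR854, miR863 and miR5090 was among the 53, so they were not analysed here. The rule used no measured value, and whether each family is restricted to one plant lineage was not tested with these files. The other names were 145 from conserved families, 18 from other young families and 174 predicted names.

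Small RNA libraries were made from shoots of 10-day-old seedlings of the ecotype Col-0. The groups were wild type (WT) in the control condition, WT in low nitrogen (low N), a hasty knockout (KO) in the control condition and hasty KO in low N, with 3 biological replicates each and 12 libraries in all. All seedlings had 5 days of standard nutrients, and the low N groups then had 5 days of low N. The labels give neither the hasty allele nor the control medium, and they do not say how many seedlings were pooled. With these groups the young names can be compared between genotypes, between nitrogen conditions, and for a nitrogen response that differs by genotype. The table holds no messenger RNA, so neither the knockout nor the shoot tissue could be checked against a gene, and fewer expressing cells cannot be told apart from less miRNA per cell.

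Plant miRNAs are cut from hairpin precursors in the nucleus by DICER-LIKE enzymes, loaded into ARGONAUTE proteins and guided to messages that they match along most of their length. HASTY is the plant orthologue of the export receptor exportin-5 and is needed for normal levels of many miRNAs. Young miRNA genes arise from inverted duplications or from chance hairpins, often inside other genes, and are typically weakly expressed and lost again quickly in evolution.

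The mature sequences that carry the results are given 5′ to 3′ from RefSeq TAIR10.1, with T for U and with the seed, bases 2 to 8, in capitals. RefSeq gave a position for 53 of 53 members, and these held 51 distinct sequences. The first set holds the names that were higher in hasty, with miR840-3p, the other arm of the miR840 precursor, shown beside miR840-5p. miR848 lies on chromosome 5 (chr5:4479448-4479469, minus strand) in an intron of AT5G13890, miR2934-5p lies on chromosome 3 (chr3:5500123-5500143, minus strand) opposite MIR782 and the 5′ UTR of AT3G16230, and the miR840 arms lie on chromosome 2 (chr2:771492-771513 and chr2:771385-771405, minus strand) in the 3′ UTR of AT2G02750.
miR848: tGACATGGgactgcctaagcta
miR2934-5p: tCTTTCTGcaaacgccttgga
miR840-5p: aCACTGAAggacctaaactaac
miR840-3p: tTGTTTAGgtcccttagtttc

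The second set holds names with more counts in WT than in hasty. miR853 lies on chromosome 3 (chr3:8346416-8346437, plus strand) in an intron of AT3G23325, while both miR830 arms (chr1:4820473-4820494 and chr1:4820406-4820426, minus strand) and miR775 (chr1:29422546-29422565, plus strand) lie outside any other annotated gene on chromosome 1.
miR853: tCCCCTCTttagcttggagaag
miR830-5p: tCTTCTCCaaatagtttaggtt
miR830-3p: tAACTATTttgagaagaagtg
miR775: tTCGATGTctagcagtgcca

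The third set holds the names listed in all 12 libraries that lie outside any other annotated gene, namely miR845a (chr4:12217457-12217477, minus strand), miR829-3p.1 (chr1:11834094-11834117, minus strand), miR843 (chr3:17742147-17742167, plus strand), miR823 (chr3:4496826-4496846, minus strand) and miR771 (chr3:19659381-19659402, minus strand). miR5650 (chr2:19686959-19686979, plus strand), in an intron of EDA4 (AT2G48140), is added because its counts separated the nitrogen conditions.
miR845a: cGGCTCTGataccaattgatg
miR829-3p.1: aGCTCTGAtaccaaatgatggaat
miR843: tTTAGGTCgagcttcattgga
miR823: tGGGTGGTgatcatataagat
miR771: tGAGCCTCtgtggtagccctca
miR5650: tTGTTTTGgatcttagataca

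The fourth set holds names that share letters with another name or with a transfer RNA (tRNA). miR447a-3p and miR447b are one sequence at separate loci (chr4:1528190-1528211 and chr4:1535482-1535503, minus strand). miR5595a and miR5995b are one sequence from overlapping loci on opposite strands (chr2:10027010-10027030, minus strand, and chr2:10026979-10026999, plus strand). miR8175 lies at chr2:3740938-3740957 on the plus strand.
miR447a-3p and miR447b: tTGGGGACgagatgttttgttg
miR5595a and miR5995b: aCATATGAtctgcatctttgc
miR8175: gATCCCCGgcaacggcgcca

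Apart from these identical pairs, only miR1886.1 and miR5640 shared a seed among the members. Of the members, 37 were 21 nt long, 9 were 22 nt, 5 were 20 nt and 2 were 24 nt, and of the other known names 130 were 21 nt and 0 were 24 nt. T was the first base of 33 members (62.3%) and of 100 other known names (61.3%), whereas A was the first base of 13 members (24.5%) and of 18 other known names (11.04%). Of the 53 members, 31 lay inside another annotated gene. They comprised 15 in an intron of a protein-coding gene on its strand, 5 in a UTR on its strand, 5 opposite a protein-coding gene and 6 in pseudogenes or noncoding genes alone, and none overlapped coding sequence. Among the last, miR841b-3p overlapped only AT4G04835, which is itself annotated as MIR841b. Arms of one precursor are counted separately, and the other known names were not counted in this way. Host genes included NRT1.9, a nitrate transporter, for miR837-3p, AAP5, an amino acid permease, for miR5024-3p, and PKL, a chromatin remodeller, for miR862-5p. miR837-3p had 0, 0 and 7 counts in WT control, 4, 6 and 0 in WT low N, 3, 2 and 8 in hasty control and 6, 18 and 12 in hasty low N. It did not pass the filter on low counts used below. With no filter its edgeR adjusted p for low N against control was 0.797 in WT and 0.51 in hasty.

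Among 53 members, 3 shared a run of at least 12 nt with the 3′ end of an annotated tRNA including its added CCA, against 0 of the other known names. miR8175 matched over all 20 nt, as gatccccggcaacggcgcca, with 22 of 684 tRNA genes, each a tRNA-Asp. miR845a shared the 13-nt run ggctctgatacca with 8 tRNA-Met genes, and miR829-3p.1 shared the 12-nt run gctctgatacca with the same number of tRNA-Met genes. miR845 is known to pair with the primer binding site of long terminal repeat retrotransposons, the site at which a tRNA 3′ end primes reverse transcription. miR829-3p.1 and miR845a also shared the 13-nt run gctctgataccaa with each other. These are matches of letters, and whether reads of one sequence were counted under another was not tested.

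The young names were low and sparsely listed. The table summed to between 1292752 and 3226269 counts per library, and the members to between 727 and 2957. The highest totals were in WT control, at 3078190 ± 233803 (SD, n = 3), and the lowest in hasty low N, at 1555260 ± 241451 (SD, n = 3), so depth moved with the groups. As a share of the table the members took 0.0805% ± 0.0142 in WT control, 0.0504% ± 0.0120 in WT low N, 0.0532% ± 0.00847 in hasty control and 0.0549% ± 0.00262 in hasty low N (SD, n = 3 each). Without miR845a the mean shares were 0.0515%, 0.0403%, 0.0393% and 0.0381%, in the same order. All these sums count the one sequence of miR447a-3p and miR447b under both names. Each name had 394, 424 and 476 counts in WT control and 287, 176 and 0 in WT low N, and neither exceeded 177 in a hasty library. Shares without this sequence were not computed, so the order of the groups is not shown to hold without it.

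Levels below are CPM, counts divided by the library total times 1000000, scaled by edgeR's TMM factors. All members were 20 to 24 nt long, and levels were not divided by length. The median of the mean levels was 1.36 CPM over the 53 members, with a range from 0.0758 to 169 CPM. It was 91.6 CPM over the other young families, 196 CPM over the conserved families and 11.99 CPM over the predicted names. Of the members, 5 (9.43%) were above 0 in all 12 libraries, against 80.7% of conserved, 61.1% of other young and 20.1% of predicted names.

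**Figure D1:**
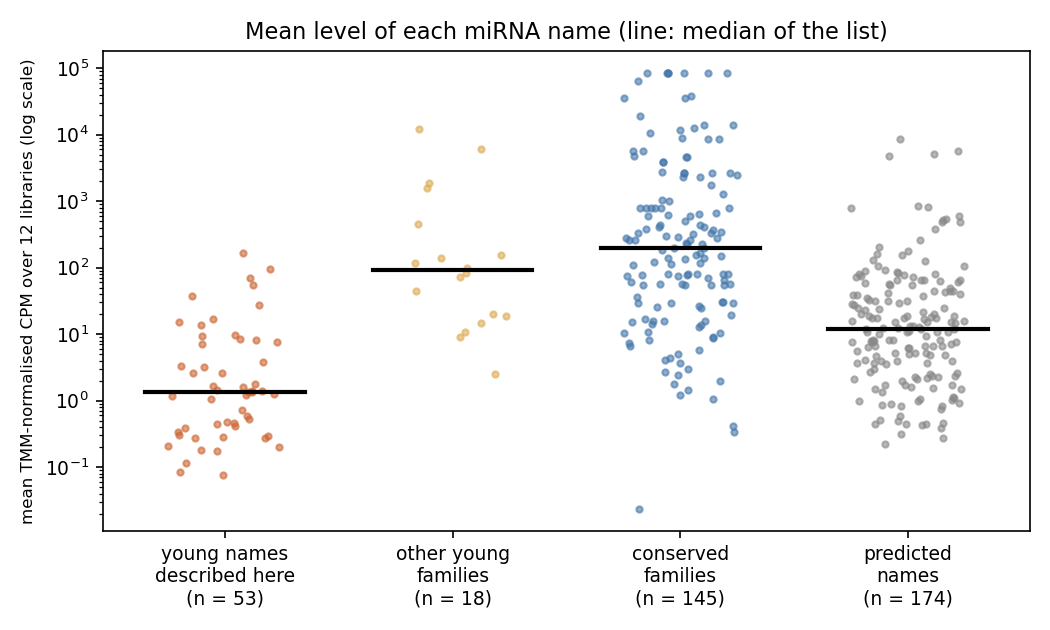
Mean level of each miRNA name over 12 libraries (vertical axis, TMM-normalised CPM, log scale) in 4 lists of names (horizontal axis), with a line at each list's median. The 53 young names have a median of 1.36 CPM and reach 169 CPM, and the conserved families have a median of 196 CPM.

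Zeros made up 57.08% of the 636 member values, against 7.209% of those of the other known names. The highest count was under 10 for 16 members, 10 to 99 for 31 and 100 or more for 6. In 13 cases a member was listed at 0 while at least 1 other replicate of that group held 50 or more counts, and in 7 of these both others did. Whether such zeros are failed listings was not tested, so no limit of detection was computed and no fold is given where a group was at 0 throughout. Members above 0 numbered 21, 22 and 28 in the WT control libraries, 26, 24 and 29 in WT low N, 22, 26 and 20 in hasty control and 16, 20 and 19 in hasty low N. The lowest numbers were thus in the group with the lowest table totals, and the part of depth in them was not tested.

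**Figure D2:**
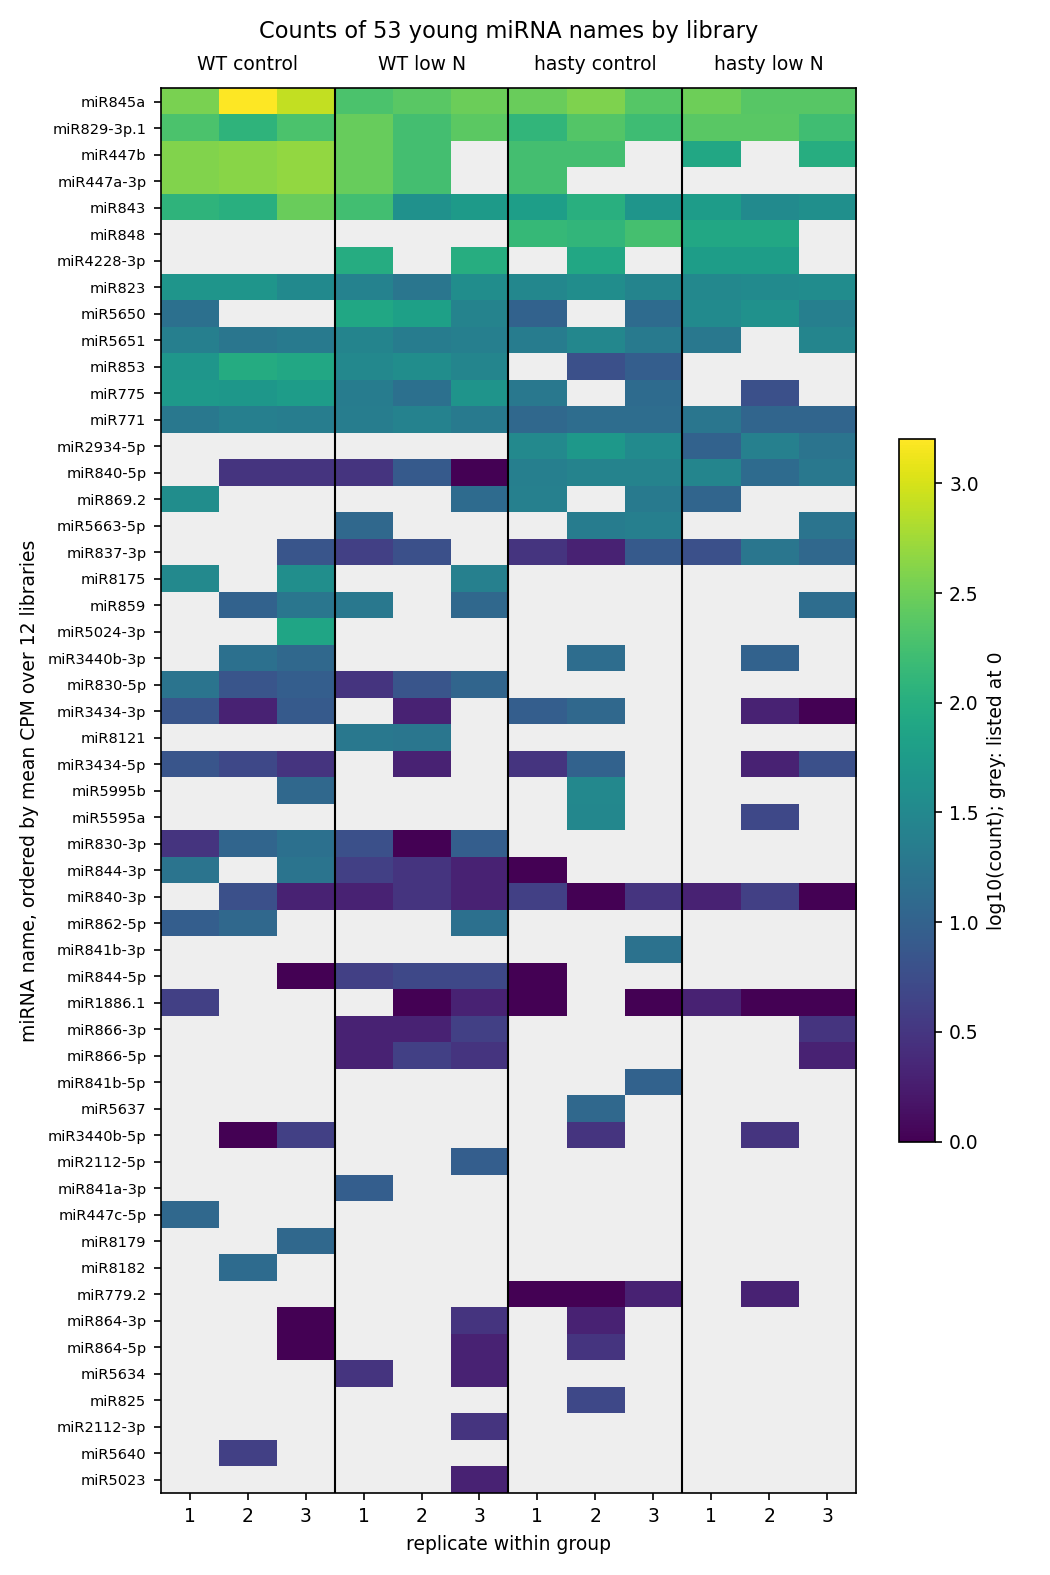
Counts of the 53 young names (rows, ordered by mean CPM) in 12 libraries (columns, replicate within group), coloured by log10(count), with grey for names listed at 0. Only 5 rows are coloured throughout, and 13 rows are coloured in 1 library.

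Of the 53 members, 20 passed the filter on low counts and were tested with edgeR's quasi-likelihood test among 273 names. The other 33 were not tested, and 15 of the 20 had at least 1 zero. Since a name high in 1 group can pass on that group alone, counts among the 20 describe those names and not the 53. Comparisons of hasty with WT share libraries with comparisons of low N with control, so their values are given side by side.

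Some young names were higher and others lower in hasty than in WT. Of the 20 tested members, 15% were called in control, 25% in low N and 30% over both conditions. Of all 273 names, 45.79%, 34.8% and 55.68% were called in the same comparisons. In control, 3 tested members were higher in hasty than in WT and 0 were lower. Of the 273 names, 18.7% were called higher there and 27.1% lower. In that comparison 5 tested members and 138 of the 273 names had an unadjusted edgeR p under 0.05. DESeq2 called 1 tested member and 69 of the 273 names lower. In low N, 4 tested members were higher and 1 was lower, where 11.4% of names were called higher and 23.4% lower. Averaged over both nitrogen conditions, 5 were higher and 1 lower, where 24.2% were called higher and 31.5% lower. The median log2 change over the 20 tested members was 0.19 in control and -0.03 in low N, and over all 273 names it was 0 in both. Over all names the split of higher against lower calls was 51 to 74 in control and 31 to 64 in low N with TMM. In control it was 36 to 81 with library totals, 63 to 67 with median-of-ratios factors and 74 to 69 with DESeq2. In low N it was 43 to 59 with library totals, 47 to 59 with median-of-ratios factors, 73 to 70 with DESeq2 and 49 to 48 with no filter.

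miR840 is a precursor that lies in the 3′ UTR of a pentatricopeptide repeat gene and is known to target messages of WHIRLY3 and of that gene. miR840-5p had 0, 3 and 3 counts in WT control, 3, 8 and 1 in WT low N, 24, 27 and 27 in hasty control and 29, 13 and 19 in hasty low N. Every hasty library lay above every WT library. Its level was 12.3 ± 1.87 CPM in hasty control and 0.54 ± 0.47 CPM in WT control (SD, n = 3). On the log2 scale the change was 4.37 ± 1.03 (SE, 20.6-fold, edgeR adjusted p = 0.00663). In low N it was 13.9 ± 5.04 CPM in hasty and 1.90 ± 1.86 CPM in WT (SD, n = 3). On the log2 scale the change was 2.85 ± 0.97 (SE, 7.22-fold, edgeR adjusted p = 0.0477). The control call held with each library left out. The low N call held only without WT control replicate 1 or WT low N replicate 2, and leaving out any other library gave adjusted p-values up to 0.139 in edgeR. It was also lost with the replicate block (0.0816), with no filter (0.0761) and in a fit of the compared groups alone (0.0655).

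The other arm did not show this separation. miR840-3p had 0, 6 and 2 counts in WT control, 2, 3 and 2 in WT low N, 4, 1 and 3 in hasty control and 2, 4 and 1 in hasty low N, and its groups overlapped. It did not pass the filter. With no filter its log2 change was 0.76 in control (edgeR adjusted p = 0.735) and 0.76 in low N (edgeR adjusted p = 0.726). Summed over 6 libraries, the 5p arm held 139 counts in hasty against 15 for the 3p arm, and 18 in WT against 15. The difference between the arms was not tested.

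miR2934-5p was the only member above 0 in all 6 hasty libraries and at 0 in all 6 WT libraries. Its hasty counts were 32, 51 and 34 in control and 10, 25 and 17 in low N, at 18.1 ± 3.17 and 12.04 ± 5.34 CPM (SD, n = 3). The edgeR adjusted p was 0.000337 in control and 0.00056 in low N, and both calls held with each library left out. On the opposite strand the annotation places MIR782, and no source used here gives the strand use of the counting, so reads of either strand at this locus cannot be told apart.

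miR848 was at 0 in all 6 WT libraries, and had 138, 128 and 178 counts in hasty control and 82, 84 and 0 in hasty low N. The hasty control libraries all lay above WT, whereas hasty low N replicate 3 was at 0 like WT. Its level was 71.0 ± 21.7 CPM in hasty control and 37.3 ± 32.3 CPM in hasty low N (SD, n = 3). The edgeR adjusted p was 0.019 in control, which held with each library left out and was 0.0803 with the replicate number as a block. In low N it was 0.0352, and the call held without hasty low N replicate 3 or any 1 of the WT control libraries and was lost, with adjusted p up to 0.0796, without any 1 of the other 8. It was also lost with the replicate block and in a fit of the compared groups alone, with adjusted p-values up to 0.134.

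miR853 had the opposite pattern. It had 48, 93 and 84 counts in WT control, 31, 37 and 29 in WT low N, 0, 6 and 9 in hasty control and 0 in all 3 hasty low N libraries. Every WT library lay above every hasty library. In low N the edgeR adjusted p was 0.00614, and this call held with each library left out. In control the level was 2.44 ± 2.41 CPM in hasty and 20.7 ± 5.53 CPM in WT (SD, n = 3). On the log2 scale the change was -3.06 ± 1.10 (SE) and missed the threshold in edgeR (adjusted p = 0.0573). That change passed in DESeq2 (adjusted p = 0.000409), with library totals (0.0445), without hasty control replicate 1 (0.00816) and without hasty low N replicate 3 (0.0457).

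Both arms of miR830 were above 0 in all 6 WT libraries and at 0 in all 6 hasty libraries. miR830-5p had 17, 7 and 9 counts in WT control and 3, 7 and 11 in WT low N. miR830-3p had 3, 11 and 15 in WT control and 6, 1 and 9 in WT low N. Neither arm passed the filter. With no filter, miR830-5p gave edgeR adjusted p-values of 0.016 in control and 0.0267 in low N, and miR830-3p gave 0.0327 and 0.056. Over all 108 pairs of precursor and library with both arms named, 1 arm was listed alone in 1. The miR830 arms are therefore not counted as separate observations.

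**Figure D3:**
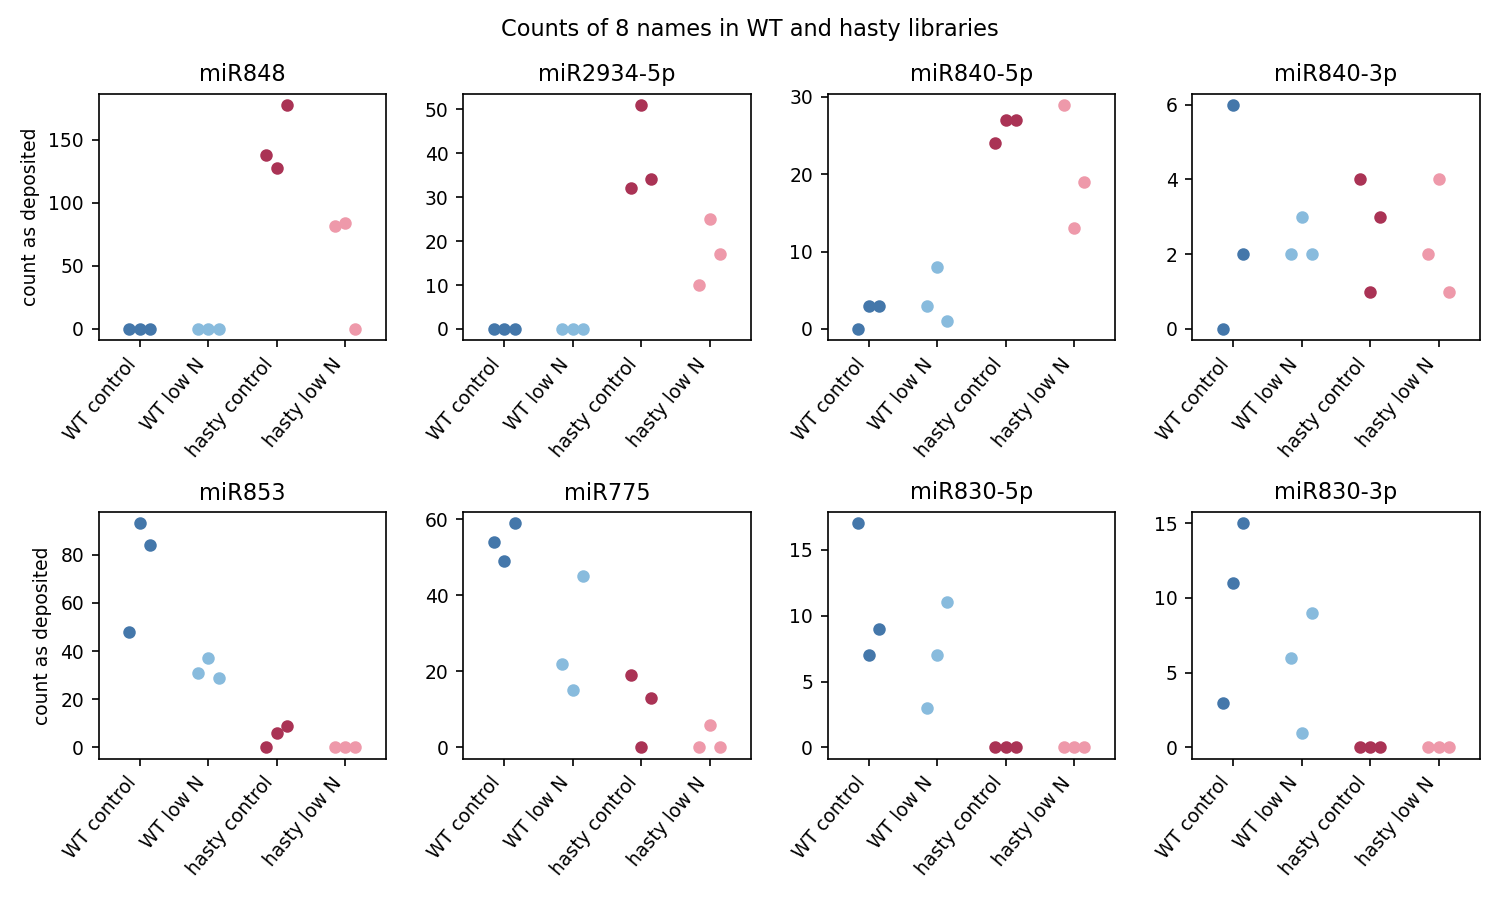
Counts as deposited (vertical axis) of 8 young names in the 4 groups (horizontal axis), with 1 point per library. miR2934-5p is at 0 in all 6 WT libraries, miR853 is at 0 in all 3 hasty low N libraries, and the miR830 arms are at 0 in all 6 hasty libraries.

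miR823, which is known to target CHROMOMETHYLASE 3, a DNA methyltransferase, had 47, 46 and 33 counts in WT control, 26, 18 and 37 in WT low N, 30, 37 and 28 in hasty control and 31, 34 and 36 in hasty low N. Scaled by depth, the 3 hasty low N libraries, at 20.4, 23.4 and 26.0 CPM, lay above the other 9. Hasty low N stood at 23.3 ± 2.83 CPM against 12.2 ± 4.12 CPM in WT low N (SD, n = 3). The log2 change was 0.93 ± 0.31 (SE, 1.91-fold, edgeR adjusted p = 0.0414). In control the levels were 14.8 ± 0.735 CPM in hasty and 11.7 ± 2.32 CPM in WT (SD, n = 3), a log2 change of 0.33 that did not pass (edgeR adjusted p = 0.438). The low N call held without WT control replicate 3, WT low N replicate 3 or hasty control replicate 2. It was lost without any other 1 library, with edgeR adjusted p-values up to 0.136, and with a mean of at least 10 CPM required (0.0666), the replicate block (0.0978) or the compared groups alone (0.145).

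miR775, known to target the galactosyltransferase gene GALT9, had 54, 49 and 59 counts in WT control, 22, 15 and 45 in WT low N, 19, 0 and 13 in hasty control and 0, 6 and 0 in hasty low N. Within each nitrogen condition every WT library lay above every hasty library. The log2 change was -1.52 in control (edgeR adjusted p = 0.477) and -3.11 in low N (edgeR adjusted p = 0.165). Averaged over both it was -2.31 (edgeR adjusted p = 0.103), with an adjusted p of 0.0412 in DESeq2 and of 0.0204 without hasty low N replicate 2.

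miR447, known to target 2-phosphoglycerate kinase messages, showed how listing can differ between names of one sequence. miR447a-3p and miR447b both had 394, 424 and 476 counts in WT control and 287, 176 and 0 in WT low N. In hasty, miR447a-3p had 177, 0 and 0 in control and 0 throughout in low N, whereas miR447b was above 0 in control replicates 1 and 2, at 51.5 ± 44.9 CPM over the 3 libraries (SD), and had 82, 0 and 98 counts in low N. With the higher of both taken as 1 name, a choice made after seeing the data, the log2 change of hasty against WT was -1.40 in control (edgeR adjusted p = 0.651) and -0.73 in low N (edgeR adjusted p = 0.885). Counted alone, miR447a-3p was called by DESeq2 for hasty against WT in low N (adjusted p = 9.4e-13) and over both conditions (1.22e-08). DESeq2 also called it for low N against control in hasty (2.91e-11) and over both genotypes (4.74e-07). Its edgeR adjusted p-values were 0.0908, 0.0606, 0.172 and 0.165 in the same order. In edgeR the first passed without hasty control replicate 1, and the second without that library or WT low N replicate 3. The zero of replicate 3 in WT low N stands beside counts of 176 and 287 in the other replicates of that group. miR447c-5p had 12 counts in WT control replicate 1 and 0 elsewhere.

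Fewer tested members were called between nitrogen conditions than between genotypes, and the same held over all names. In WT, 1 tested member was higher in low N than in control and 0 were lower. Of all names, 17.2% were called higher there and 15.0% lower. In that comparison 5 tested members and 105 of the 273 names had an unadjusted edgeR p under 0.05. DESeq2 called 1 tested member and 45 of the 273 names lower. In hasty, 1 tested member was higher and 1 lower, where 8.79% of names were called higher and 15.0% lower. Averaged over both genotypes 2 were higher and 1 lower, where 15.8% were called higher and 18.3% lower. The median log2 change over the tested members was 0 in WT and -0.01 in hasty, beside 0.06 and -0.05 over all names. With library totals the median over all names was -0.269 in WT and -0.134 in hasty, and in WT the split of calls was 15 to 62 in place of 47 to 41.

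miR829-3p.1, at 24 nt the longest of the abundant members, rose in low N. Its counts were 197, 119 and 198 in WT control, 285, 177 and 250 in WT low N, 126 to 219 in hasty control and 240, 244 and 165 in hasty low N. As CPM the libraries of WT control were at 58.6, 30.6 and 56.1 and those of WT low N at 117, 88.5 and 114, without overlap. WT rose from 48.4 ± 15.5 to 106 ± 15.6 CPM (SD, n = 3), and the log2 change came to 1.14 ± 0.28 (SE, 2.20-fold, edgeR adjusted p = 0.0117). That call held with each library left out and missed with library totals (log2 change 0.79, adjusted p = 0.0534).

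In hasty, miR829-3p.1 was at 58.7, 91.2 and 86.2 CPM in control and 158, 168 and 119 CPM in low N, again without overlap. Hasty rose from 78.7 ± 17.5 to 148 ± 25.8 CPM (SD, n = 3). On the log2 scale the change was 0.92 ± 0.28 (SE, 1.89-fold, edgeR adjusted p = 0.0419). This call held without WT control replicate 1 or 2, WT low N replicate 2, hasty control replicate 2 or hasty low N replicate 3, and was lost without any 1 of the other 7 (edgeR adjusted p up to 0.133), with library totals (0.0583), with the replicate block (0.09) and in a fit of the compared groups alone (0.0509). Averaged over genotypes the log2 change was 1.03 ± 0.20 (SE, edgeR adjusted p = 0.00302), and it passed in every alternative and with each library left out. Averaged over nitrogen conditions, hasty was higher than WT by 0.59 ± 0.20 on the log2 scale (SE, edgeR adjusted p = 0.0304). The genotype call was lost without WT low N replicate 2, hasty control replicate 3 or hasty low N replicate 1 or 2 (adjusted p up to 0.0668) and with the replicate block (0.0561).

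miR845a was the most abundant member and had its widest spread in WT control. It had 363, 1567 and 813 counts in WT control, 198, 241 and 299 in WT low N, 294, 378 and 224 in hasty control and 314, 232 and 232 in hasty low N. As CPM, WT control held 108, 403.2 and 230 and WT low N held 81.4, 120 and 136, so these groups overlapped through WT control replicate 1. The level was 247 ± 148 CPM in WT control and 113 ± 28.1 CPM in WT low N (SD, n = 3). On the log2 scale the change was -1.13 ± 0.40 (SE) and missed the threshold in edgeR (adjusted p = 0.0591). It passed with DESeq2 (0.0279), with library totals (0.0217), with one mature sequence counted once (0.0383) and without WT control replicate 1 (0.00513).

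In hasty, miR845a stood at 137, 157 and 120 CPM in control and at 206, 160 and 168 CPM in low N, with every low N library above every control library. The log2 change was 0.37 (edgeR adjusted p = 0.626). The interaction, the log2 change in hasty minus that in WT, was 1.5 ± 0.57 (SE, edgeR adjusted p = 0.357), and 2.03 without WT control replicate 1 (adjusted p = 0.0456). Without that replicate the log2 change of hasty against WT in control was -1.36 (edgeR adjusted p = 0.00854), in place of -0.84 (adjusted p = 0.118).

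Averaged over both genotypes, a contrast added after seeing the data, miR771 was called higher in low N. Its naming also came after its values were seen. It had 19, 24 and 23 counts in WT control, 23, 26 and 21 in WT low N, 12, 14 and 14 in hasty control and 18, 11 and 11 in hasty low N. As CPM the control libraries ranged from 5.59 to 7.49 and the low N libraries from 7.59 to 13.0, without overlap. Averaged over genotypes the log2 change was 0.66 ± 0.21 (SE, edgeR adjusted p = 0.0352). It was 0.80 in WT (adjusted p = 0.0689) and 0.53 in hasty (adjusted p = 0.259), and neither passed in the main edgeR fit. The WT change passed in DESeq2 (adjusted p = 0.0241) and in edgeR with identical rows counted once (adjusted p = 0.0461). The averaged call held only without WT low N replicate 3, hasty control replicate 3 or hasty low N replicate 2. It was lost without any other 1 library (edgeR adjusted p up to 0.157) and with library totals (0.126), the replicate block (0.137), no filter (0.195) or one mature sequence counted once.

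miR5650 had 15, 0 and 0 counts in WT control, 81, 65 and 27 in WT low N, 10, 0 and 13 in hasty control and 34, 42 and 24 in hasty low N. All 6 low N libraries, at 12.3 to 33.3 CPM, lay above all 6 control libraries, at 0 to 6.96 CPM. The log2 change averaged over genotypes was 3.32 ± 1.24 (SE) and missed the threshold in edgeR (adjusted p = 0.0637). It passed in DESeq2 (adjusted p = 0.00704) and without WT control replicate 1 (0.00855). Within WT it was 4.09 (edgeR adjusted p = 0.129), with 0.0245 in DESeq2 and 0.0161 without WT control replicate 1, and within hasty it was 2.56 (edgeR adjusted p = 0.351).

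The member called lower in low N was miR853 in hasty, from 0, 6 and 9 counts in control to 0 in all 3 low N libraries, with overlap at 0 (edgeR adjusted p = 0.0431). Its mean counts there were near 0, and the call held without hasty control replicate 1 alone of the 12 libraries, with adjusted p-values up to 0.098 without any other. It was lost with no filter, with the replicate block and in a fit of the compared groups alone, with adjusted p-values up to 0.267. For miR853 the WT means were 20.7 ± 5.53 in control and 14.8 ± 3.202 CPM in low N (SD, n = 3), and the log2 change of -0.48 did not pass (edgeR adjusted p = 0.876). The average over genotypes also passed (edgeR adjusted p = 0.0422), and likewise held only without hasty control replicate 1, with adjusted p-values up to 0.0845 without any other and up to 0.0961 with no filter or the replicate block.

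miR843 did not pass in any contrast. It had 120, 104 and 296 counts in WT control, 170, 42 and 55 in WT low N, 62, 105 and 46 in hasty control and 59, 34 and 39 in hasty low N, with overlap between all groups. Its group means ran from 48.8 ± 30.7 CPM in WT control through 38.6 ± 27.1 in WT low N and 32.4 ± 10.0 in hasty control to 30.1 ± 7.84 in hasty low N (SD, n = 3), and neighbours in that order did not differ beyond their spread.

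**Figure D4:**
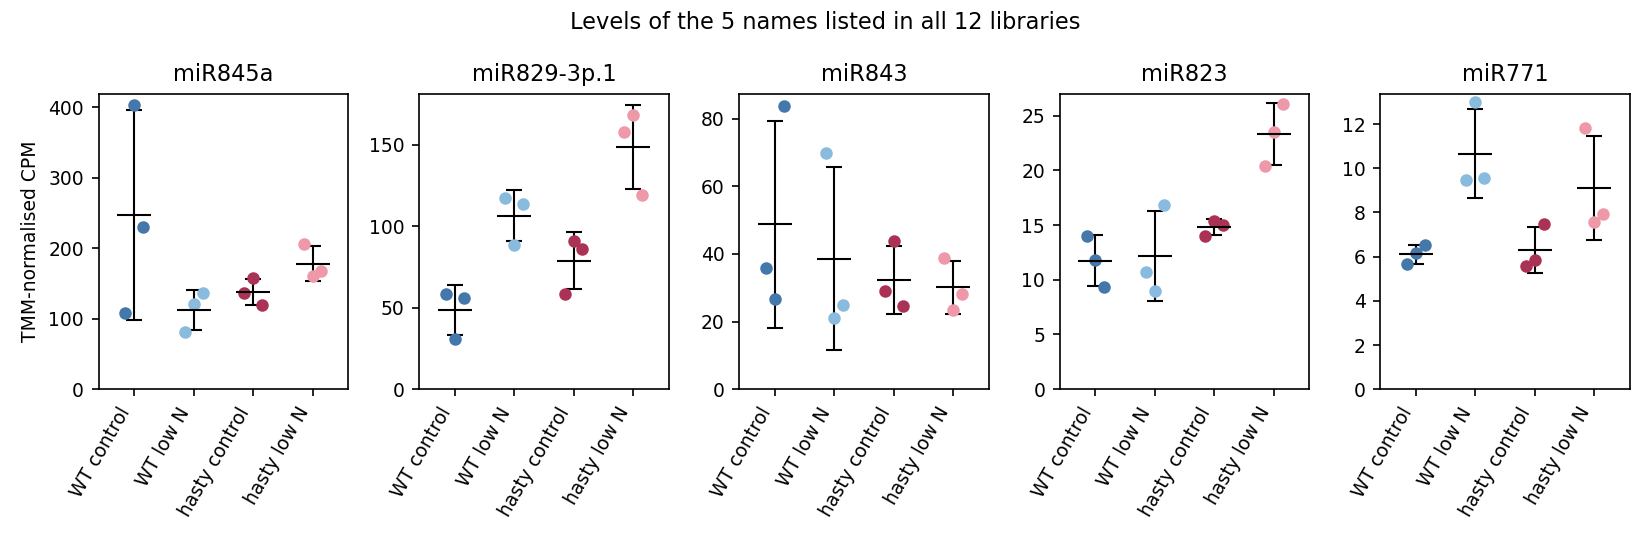
TMM-normalised CPM (vertical axis, from 0) of the 5 young names listed in all 12 libraries, in the 4 groups (horizontal axis), with 1 point per library and the group mean ± SD. miR829-3p.1 is higher in low N in both genotypes, and miR845a has its widest spread in WT control, from 108 to 403.2 CPM.

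No tested member passed the interaction of genotype and nitrogen in edgeR, where 0.366% of names had a higher and 1.47% a lower low N response in hasty. Among the 20 tested members 2, miR845a and miR853, had an unadjusted edgeR p under 0.05, beside 27 of all 273 names. The smallest edgeR adjusted p among those members was 0.357. DESeq2 called 1, miR447a-3p (adjusted p = 2.42e-05), whose edgeR adjusted p was 0.495 and, with miR447b merged into it, 1. A response that passed in 1 genotype and missed in the other is therefore not shown to differ between them.

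The remaining named members had low or scattered counts. miR5651 had 24, 18 and 21 counts in WT control, 28, 22 and 24 in WT low N, 22, 30 and 21 in hasty control and 19, 0 and 29 in hasty low N, and no contrast passed with all libraries in edgeR. Without hasty low N replicate 2, its single zero, hasty against WT in control, hasty against WT over both nitrogen conditions and low N against control over both genotypes each passed. miR4228-3p had 96, 0 and 99 counts in WT low N, 0, 83 and 0 in hasty control, 60, 60 and 0 in hasty low N and 0 in all WT control libraries.

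miR859, known to target F-box messages, had 0, 10 and 18 counts in WT control, 19, 0 and 12 in WT low N, 0 in all hasty control libraries and 0, 0 and 14 in hasty low N. miR8175 had 32, 0 and 38 counts in WT control, 0, 0 and 25 in WT low N and 0 in all 6 hasty libraries. miR825, linked to plant immunity, had 5 counts in hasty control replicate 2 and 0 elsewhere. None of these 3 names was above 0 in every library of a group. miR859 and miR8175 were tested and passed no contrast in edgeR, with adjusted p-values of 0.161 and 0.156 for hasty against WT in control, and miR825 was not tested.

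Several names above 0 in every library of a group had counts under 20. miR866-5p had 2, 4 and 3 counts in WT low N and miR866-3p 2, 2 and 4, both were at 0 in every control library, and hasty low N replicate 3 held 2 and 3. With no filter the edgeR adjusted p for low N in WT was 0.141 for the 5p arm and 0.175 for the 3p arm. miR844-5p had 0, 0 and 1 counts in WT control and 4, 5 and 5 in WT low N, while miR844-3p had 17, 0 and 17 and then 4, 3 and 2. In hasty the miR844 arms held 1 count each, both in control replicate 1. miR779.2 had 1, 1 and 2 counts in hasty control, 0, 2 and 0 in hasty low N and 0 in WT.

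Across all 53 members, 8 were listed in hasty libraries alone, 15 in WT alone and 30 in both genotypes, and 10 were listed in control libraries alone and 8 in low N alone. These counts include 13 names above 0 in 1 library, and 21 names were above 0 in 3 or fewer libraries. The shares over all 390 names were not computed, and mean table totals were lower in both hasty groups than in both WT groups. The counts are therefore not read as a trait of the members. The largest count in a name listed once was 76, for miR5024-3p in WT control replicate 3. Both arms were named for 9 precursors, and over their 108 pairs of precursor and library both arms were above 0 in 43, neither in 64 and 1 arm alone in 1. That exception was miR844-3p in WT control replicate 1. The paired names miR5595a and miR5995b differed in spite of their one sequence, with 30 and 31 counts in hasty control replicate 2, 5 and 0 in hasty low N replicate 2 and 0 and 12 in WT control replicate 3.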

How the data were processed

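The authors deposited one table of whole-number counts per miRNA name; it is named for TPM, but its columns sum to different totals. Trimming, alignment and counting are not given in the sources used here, and the submitters' processing notes name only mm10, a mouse assembly. Libraries were amplified by PCR, and reads of one sequence can be listed under several names. Counts were tested with edgeR 4.0.16 (TMM, filterByExpr, glmQLFit, then a two-sided glmQLFTest; R 4.3.3). The model had 1 mean for each group of 12 libraries and left 8 residual degrees of freedom. P-values were adjusted by Benjamini-Hochberg over the 273 names tested, with a threshold of 0.05. The SE is the log2 change divided by the square root of F. Sequences were read from RefSeq TAIR10.1 by product name, matched for 216 of 216 known names. The members and lists were chosen with earlier results of these data known. Named members were the 10 most abundant, those called without overlap at 10 CPM or more, those at 0 in one group and above 0 throughout the other, and the role families. The members miR771, miR837-3p, miR8175, miR5024-3p, miR5595a and miR5995b were named after their values were seen. Alternatives were other size factors, filters, groups in the fit, DESeq2 1.42.0, the replicate block, merged names and each library left out. Averages over a factor and merged names were added after seeing the data. The scripts were tested on simulated data.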

Additional observations from a re-analysis of the deposited data

How the results depend on the processing

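Under the alternatives, 23 of the log2 changes printed above were recomputed, and none reversed. Contrasts with a group at 0 throughout were left out of these 23. Names under a mean of 10 CPM gave no value where that mean was required. Of the recomputed values, 400 kept direction and side of the threshold, 54 lost and 19 gained a call. In other contrasts of these and further named members, 65 recomputed values that passed in neither fit changed sign. The counts of called members are small, and the following moved by over 1.5 times; unless construction is named, the cause was not tested. With a mean of at least 10 CPM required, which left 9 members tested, hasty against WT gave 1 higher in control, 1 higher and 0 lower in low N and 2 higher and 0 lower over both conditions, and low N gave 0 lower in hasty and 1 higher and 0 lower over both genotypes. Of the 244 names tested there, hasty against WT gave 37 higher in control and 25 higher and 59 lower in low N. For low N in hasty, 36 of them were lower. With no filter, which tested all 53, hasty against WT gave 2 lower in control, 2 lower in low N and 4 lower over both conditions, and low N gave 0 lower in hasty and 1 higher and 0 lower over both genotypes. Of the 390 names, 72 were lower in control and 48 in low N for hasty against WT, and 35 for low N in hasty. DESeq2 gave 1 lower in control, 2 lower in low N and 3 lower over both conditions for hasty against WT. For low N it gave 3 higher and 1 lower in WT, 2 lower in hasty, 2 lower over both genotypes and 1 lower interaction. Over the 273 names DESeq2 gave 69 lower in control and 70 in low N for hasty against WT. For low N it gave 63 higher and 45 lower in WT and 53 lower in hasty over those names. Library totals gave 1 lower for hasty against WT in control, 0 higher and 1 lower for low N in WT, 0 higher in hasty and 1 higher over both genotypes. Over all names they gave 81 lower for hasty against WT in control. For low N they gave 15 higher and 62 lower in WT and 17 higher in hasty over all names. In the compared groups alone, hasty against WT in low N had 1 higher, and low N in hasty had 0 higher and 0 lower. Over all names these fits gave 27 higher in the former and 20 higher and 32 lower in the latter. Identical rows counted once gave 2 higher for low N in WT, and one mature sequence counted once gave 1 lower in WT and 1 higher over both genotypes. Over all names tested, for low N in WT, the former gave 50 higher of 245 and the latter 36 lower of 225. Whether same-numbered replicates pair was not tested. Over 18 same-numbered pairs of libraries the correlation of deviations ran from -0.309 to 0.397 and was over 0.1 in 7. Between libraries of different groups and numbers it ran from -0.364 to 0.237. With the replicate number as a block, hasty against WT had 1 higher in low N and 3 higher over both conditions, and low N had 0 higher and 0 lower in hasty and 1 higher and 0 lower over both genotypes. Over all names the block gave 27 higher for hasty against WT in low N. For low N in hasty it gave 17 higher and 34 lower over all names. With each library left out in turn, hasty against WT ranged over 3 to 4 higher and 0 to 1 lower in control, 1 to 3 higher and 1 to 2 lower in low N and 3 to 5 higher and 1 to 2 lower over both. Low N ranged over 1 to 2 higher and 0 to 1 lower in WT, 0 to 1 higher and 0 to 1 lower in hasty and 1 to 3 higher and 0 to 1 lower over both genotypes, and the interaction over 0 to 1 in each direction. Over all names these fits gave 34 to 51 higher and 66 to 83 lower for hasty against WT in control. In low N they gave 24 to 50 higher and 50 to 67 lower. For averages over a factor and the interaction, calls over all names under the alternatives are not given. The highest count was under 100 for all but 6 members, and no fit was made at matched depth.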
